A study of Mus musculus with 19 samples.

Results

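Myostatin, the activins and the TGF-beta isoforms are related secreted ligands, and 10 genes of this system were followed over all 19 arrays of the series. The genes were the ligands Mstn, Inhba, Inhbb, Tgfb1, Tgfb2, Tgfb3 and Bmp4, the antagonist Fst, the receptor Acvr2b and the inhibitory Smad7. Members were chosen by name, as every non-control probe whose gene name on the array was one of these, which gave 10 of 27793 genes and 11 of 41174 probes, Inhbb having 2. Expression was measured on 1-colour Agilent mouse arrays in 4 groups. WT was C2C12, a mouse myoblast line, with stably transfected empty plasmids (n = 6). HDAC4&5 was C2C12 that stably carried human HDAC4 and human HDAC5 plasmids (n = 6). Both lines were selected with hygromycin B and geneticin at 500 µg/mL, grown to about 80% confluency and harvested after 48 h, and the study examined them as myoblasts because the HDAC4&5 cells did not form myotubes. Con was soleus muscle of male heterozygous db -/+ littermates (n = 3) and db was soleus of male db +/+ mice (n = 4), whose leptin receptor does not function. These mice were 12 weeks old, on a C57BL6J background, and fasted for 5 h. Arrays of the cells were taken as replicate dishes of each line, so their p-values measured at most the spread between dishes and not between independently derived lines. For its arrays the study describes fewer biological replicates per group than there were arrays of either line or of db. The db arrays are numbered in the labels as 4 mice. Whether some arrays of a line were repeats of the same dish was not tested. If they were, the p-values of the cells would be too small.

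These ligands act as dimers on paired type I and type II serine/threonine kinase receptors, which phosphorylate Smad proteins that then enter the nucleus and regulate genes. Myostatin and the activins bind ACVR2B and signal through SMAD2 and SMAD3, as the TGF-betas do through their own receptors, while BMP4 signals through SMAD1, SMAD5 and SMAD9. Follistatin, encoded by Fst, traps myostatin and activins outside the cell, SMAD7 blocks the receptors from inside it, and loss of myostatin is known to enlarge skeletal muscle.

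The sequences before 2 of the members are shown. Mstn was taken because its soleus groups did not overlap, a difference that did not pass the adjusted p. Tgfb2 was taken because it had the largest fall in HDAC4&5 cells among tested members well above background in both cell groups. Fst, below background in HDAC4&5 cells, was not ranked. The sequences are the 250 bases before the annotated gene start, on the gene's own strand, from RefSeq (GRCm38.p6), at chr1:53061390-53061639 on the plus strand for Mstn and chr1:186705990-186706239 on the minus strand for Tgfb2. Capitals mark each E-box, the letters CANNTG, N being any base. The pattern reads the same on both strands, though a single site need not. It is the general core of sites of MYOD1 and related factors, and no site here was assigned to a factor.
Mstn: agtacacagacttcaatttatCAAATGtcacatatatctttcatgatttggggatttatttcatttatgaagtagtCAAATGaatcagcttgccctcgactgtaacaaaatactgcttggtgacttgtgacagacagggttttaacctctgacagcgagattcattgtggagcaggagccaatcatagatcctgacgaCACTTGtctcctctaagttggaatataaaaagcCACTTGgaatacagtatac
Tgfb2: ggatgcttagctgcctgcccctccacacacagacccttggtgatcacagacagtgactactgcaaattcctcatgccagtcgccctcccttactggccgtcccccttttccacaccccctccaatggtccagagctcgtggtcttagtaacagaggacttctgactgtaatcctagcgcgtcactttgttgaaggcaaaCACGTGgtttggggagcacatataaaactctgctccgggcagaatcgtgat
The Mstn window held 4 E-boxes and the Tgfb2 window held 1. E-boxes were in 66.2% of all 32851 promoter windows of this length, so such a match is common. RefSeq windows were used for 7 of the 10 members. Among the other 5, the Bmp4 window held 3 E-boxes and those of Inhba, Inhbb, Tgfb1 and Acvr2b held 0. The shorter Smad box CAGAC, counted on both strands, had 2 matches before Mstn, 2 before Tgfb2 and 1 before Acvr2b, against 42.2% of all windows with a match. The MEF2 box, the site of the MEF2 factors that HDAC4 and HDAC5 bind, had no match in the 7 windows and was in 0.508% of all windows. These matches describe letters and not binding.

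Levels are given as log2 units from the 75th percentile of each array, so that 0 is the brightness of that percentile and each unit is a factor of 2. A level of 1 gene was not set against that of another, since probes differ in brightness. A probe was called well above background as the scanner software flagged it. Between 46.8% and 57.5% of spots per array passed that flag, and the 75th percentile of the signal was 494 to 1691 in the cells and 153 to 686 in soleus. Differences were tested by limma. A probe entered a comparison where all arrays of either group flagged it in this way, and was called at an adjusted p under 0.05. The arrays lay on slides of several arrays. Each of the 3 cell slides held 2 WT and 2 HDAC4&5 arrays, soleus slide 1 held Con 1 and 2 and db 1 and 2, and soleus slide 2 held Con 3 and db 3 and 4.

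The labels were examined first. In WT cells the myogenic factors Myod1 and Myog stood at 2.70 ± 0.13 and 4.38 ± 0.09 (SD, n = 6), and in HDAC4&5 cells at -6.04 ± 0.35, where Myod1 was well above background on 0 arrays, and -5.29 ± 0.38. All 8 tested genes of the muscle precursor list, which also holds the intermediate filament gene Des, fell in HDAC4&5 cells. The summed linear level, with each array's 75th percentile as 1, was taken over the genes of a list with a value on every array of the cells or of soleus. For 8 of the 10 genes of the precursor list it was 80.5 to 116 in WT and 1.19 to 1.31 in HDAC4&5. All 8 tested genes of fast fibres and 8 of 9 of slow fibres fell as well, and Myh7 of the slow list rose. The summed level of 9 fast fibre genes was 85.5 to 97.6 in WT and 0.562 to 0.796 in HDAC4&5. For 9 slow fibre genes it was 15.9 to 17.3 and 1.51 to 1.68. Of 6 tested fibroblast markers 4 rose, among them Col1a1 by 3.34 and Pdgfra by 2.18, and 2 fell, Col1a2, measured on 3 of 6 HDAC4&5 arrays, by 2.43 and Dcn by 1.32. The summed level of the 7 fibroblast markers other than Col1a2 was 38.2 to 45.9 in WT and 85.5 to 102 in HDAC4&5, without overlap. Pax7 and Myf5 were not well above background on any cell array. The mouse Hdac5 probe stood at 2.19 ± 0.38 in WT and 3.60 ± 0.62 in HDAC4&5, and the mouse Hdac4 probe at 0.28 ± 0.06 and 0.23 ± 0.06. Whether these mouse probes read the human transcripts was not tested. The soleus arrays held slow fibre genes at a summed level of 678 to 1999 and fast fibre genes at 445 to 2116, and markers of adipocytes (278 to 584), endothelium (21.1 to 48.9) and macrophages (38.6 to 124) were present too. In such bulk samples fewer cells of a type and less RNA per cell cannot be told apart.

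**Figure D1:**
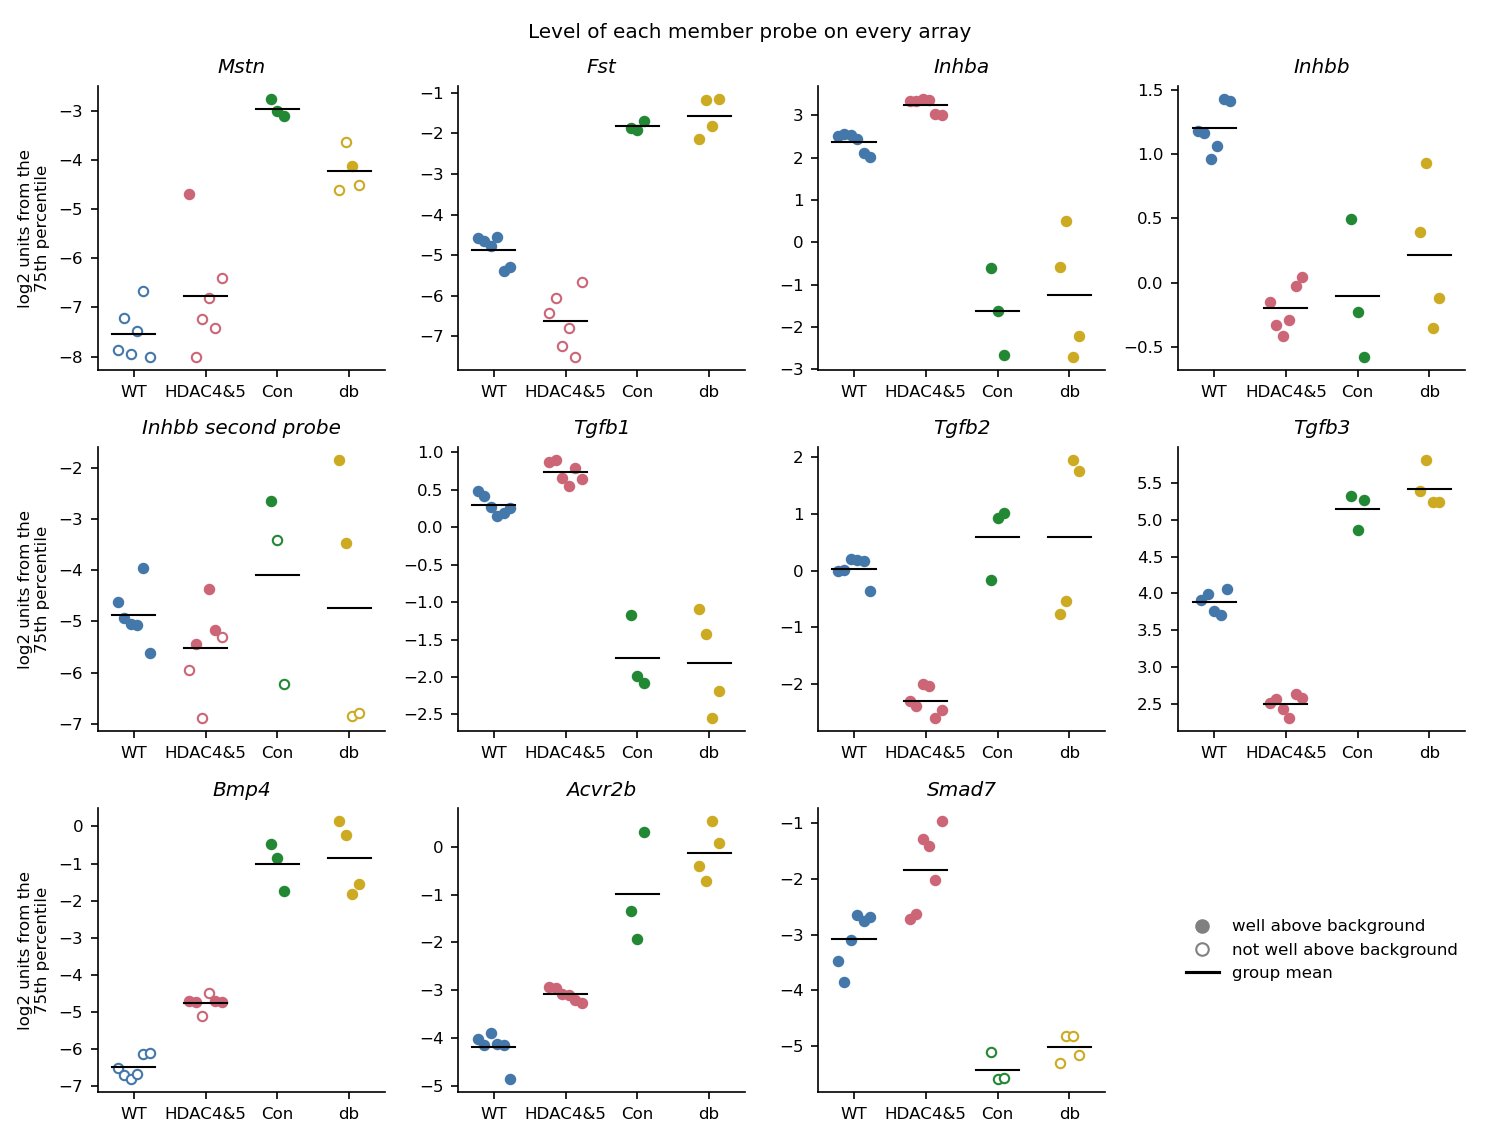
Level of the 11 member probes on every array (y axis, log2 units from the 75th percentile, 1 panel per probe) in WT and HDAC4&5 cells and Con and db soleus, with a bar at each group mean. Open circles are arrays where the probe was not well above background, which holds for all 6 WT arrays for Mstn and Bmp4 and for all 6 HDAC4&5 arrays for Fst.

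The first comparison asked how the ligand system differed in C2C12 cells that carried HDAC4 and HDAC5. Of the 10 genes 8 could be tested, and all 8 passed, 4 higher and 4 lower in HDAC4&5 than in WT cells. Inhba, Tgfb1, Acvr2b and Smad7 rose and Fst, Inhbb, Tgfb2 and Tgfb3 fell. Over all 21432 probes tested 68.4% passed, 36.5% higher and 31.9% lower, so the number of members that passed was read against a background in which most probes differed. The median log2 difference was 0.05 over all probes. Fst entered the test through WT alone. With both groups required well above background, 7 of 7 tested members passed, 4 higher and 3 lower, beside 68.3% of all probes.

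The TGF-beta isoforms, which restrain myoblast fusion and promote matrix production, went in opposite directions. Tgfb2 ran from -0.36 through a median of 0.09 to 0.21 in WT and from -2.62 through -2.35 to -2.01 in HDAC4&5. Every HDAC4&5 array lay below every WT array, and the log2 difference was -2.34 ± 0.12 (SE; adjusted p = 1.78e-09), 5.05-fold lower. Tgfb3 had values of 3.70, 3.92 and 4.07 as lowest, median and highest of 5 WT arrays, replicate 5 having been flagged as an outlier spot and dropped. In HDAC4&5 it ran from 2.30 through 2.54 to 2.63, which left a gap between the groups, with a difference of -1.38 ± 0.08 (adjusted p = 1.67e-08). Tgfb1 was 0.15, 0.26 and 0.48 in WT and 0.55, 0.72 and 0.90 in HDAC4&5. The groups did not overlap, but the rise of 0.44 ± 0.08 (adjusted p = 0.000234) was 1.36-fold, and in the authors' own matrix it was 0.26 with an adjusted p of 0.194.

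The activin subunit genes also split. Inhba encodes the subunit of activin A and was bright in the cells, at 2.02, 2.48 and 2.57 in WT and 3.01, 3.34 and 3.39 in HDAC4&5. All HDAC4&5 arrays lay above all WT arrays, by 0.88 ± 0.12 (adjusted p = 1.51e-05), 1.84-fold. Inhbb encodes the subunit of activin B and was 0.96, 1.17 and 1.43 in WT and -0.42, -0.22 and 0.05 in HDAC4&5. That was a fall of 1.40 on the log2 scale without overlap (SE 0.10; adjusted p = 5.23e-08). The second Inhbb probe was dim, at a mean of -4.88 ± 0.56 in WT and -5.52 ± 0.85 in HDAC4&5, where it was well above background on 3 of 6 arrays. Its groups overlapped and its difference of -0.64 ± 0.37 did not pass (adjusted p = 0.146).

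The antagonist, receptor and inhibitor were all dimmer than the 75th percentile. Fst was -5.40, -4.72 and -4.56 in WT, well above background on 6 of 6 arrays, and -7.52, -6.61 and -5.66 in HDAC4&5, well above background on 0 of 6. The groups did not overlap, and since the HDAC4&5 level was only a bound Fst was at least 1.42-fold lower, with a fitted difference of -1.74 ± 0.30 (adjusted p = 0.000171). With normexp background correction the Fst difference was 0.20 with an adjusted p of 0.634, so its direction rested on how background was treated. Acvr2b was -4.87, -4.14 and -3.89 in WT and -3.27, -3.10 and -2.93 in HDAC4&5. It rose by 1.11 ± 0.14 without overlap (adjusted p = 1.13e-05). Smad7 was -3.85, -2.93 and -2.65 in WT and -2.71, -1.71 and -0.97 in HDAC4&5. The groups overlapped by a small margin, and the difference of 1.25 ± 0.32 passed (adjusted p = 0.00404), being 0.99, 1.52 and 1.23 within slides 1, 2 and 3.

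Mstn and Bmp4 were not tested, because neither passed the background flag on all arrays of either group. Mstn was -8.02, -7.67 and -6.66 in WT and -8.02, -7.02 and -4.70 in HDAC4&5, and only HDAC4&5 replicate 1, the highest, was well above background. The groups overlapped, and with the other values not well above background no test is given. Within slides 1, 2 and 3 the HDAC4&5 mean was higher by 1.19, 0.69 and 0.44. Bmp4 was -6.82, -6.59 and -6.09 in WT, well above background on 0 of 6 arrays, and -5.10, -4.72 and -4.48 in HDAC4&5, well above background on 4 of 6. Here the groups did not overlap, and with the scanner's background subtraction Bmp4 was at least 1.96-fold higher in HDAC4&5. Among the 8 tested members 7 had groups without overlap, beside 52.4% of all probes tested. Fst was 1 of these 7, and entered through WT alone. With the slide as a block the same 8 members passed, beside 76.7% of all probes, and the direction held within each of the 3 slides for all 8.

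**Figure D2:**
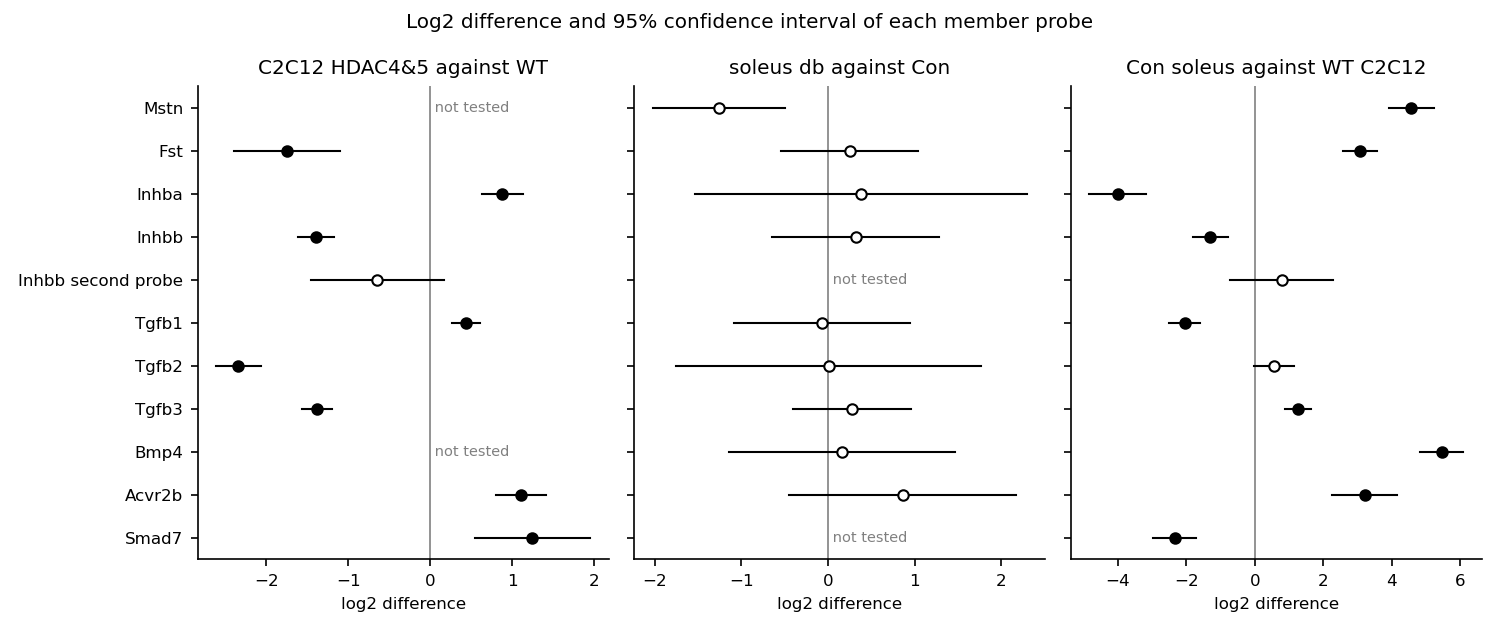
Log2 difference (x axis) and 95% confidence interval from limma for each member probe in the 3 comparisons, filled where the adjusted p was under 0.05. In C2C12 the 4 rises and 4 falls stand clear of 0, in soleus all 9 tested probes are open, and the widest Con against WT fitted differences, of Bmp4 and Mstn, are against WT arrays below background.

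The wider system was described with a list of 104 TGF-beta superfamily genes, 103 of them on the array and 10 of them the members. In C2C12 49 of 68 tested list genes passed, 20 higher and 29 lower in HDAC4&5, with a median log2 difference of -0.14 beside 0.05 over all probes. That was 72.1% of the list, or 68.3% (41 of 60) without the members, beside 68.4% of all probes, 36.5% higher and 31.9% lower, and the counts by role stand against the same shares. In the authors' matrix 13 were higher and 28 lower of 65 tested, where 52.2% of all probes passed, 20.2% higher and 32.0% lower. With the slide as a block 58 of 68 list genes passed, 23 higher and 35 lower, beside 76.7% of all probes. The counts by role that follow are from the fit without the block. Of the ligands 4 rose and 5 fell of 11 tested. Of the receptors and co-receptors 7 rose and 3 fell of 15, and of the extracellular antagonists 1 rose and 5 fell of 9. Of the genes of latency and activation 1 rose and 5 fell of 7, and of the Smads and their regulators 6 rose and 4 fell of 16. Of 10 target genes 1 rose and 7 fell.

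The 5 largest rises in that list were of 3 receptors or co-receptors, an inhibitory Smad and a ligand. Tgfbr3, the co-receptor betaglycan, was -7.98 to -7.01 in WT and well above background on 0 of 6 arrays, and -3.82 to -3.27 in HDAC4&5. With the scanner's background subtraction it was at least 4.65-fold higher. Bambi, a decoy receptor without kinase activity, rose by 2.30 ± 0.08, and Amhr2, the receptor for anti-Müllerian hormone, rose by 2.30 ± 0.10. Smad6, the inhibitory Smad of the BMP branch, rose by 1.53 ± 0.08, and Gdf1 by 1.52 ± 0.05. Gdf1 shares a transcript with Cers1, so the Gdf1 probe cannot tell the products of these genes apart. The largest falls were of Hjv, the BMP co-receptor hemojuvelin, which was -1.17 to -0.95 in WT and below background on all 6 HDAC4&5 arrays. By the same subtraction Hjv was at least 20.1-fold lower. Ltbp2, a matrix protein of the latent TGF-beta binding family, fell by 4.54 ± 0.12, and the BMP antagonist Nbl1 fell by 4.48 ± 0.14. The stress-induced ligand Gdf15 fell by 2.95 ± 0.07, and Bmper, a BMP-binding protein, fell by 2.70 ± 0.09. All 10 of these adjusted p-values were between 1.03e-12 and 9.68e-10 in limma, and their groups did not overlap.

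Some genes next to the members in the pathway are named here after their values were seen. The type I receptor gene Tgfbr1 rose by 0.81, the signalling Smad gene Smad3 rose by 1.29 and Acvr1b, a type I receptor for activin and myostatin, rose by 0.46. Smad4 rose by 0.28 and the Smad regulator Ski fell by 1.20 (limma adjusted p = 0.000297 and 2.85e-09). Tgfbr2 differed by 0.06 (adjusted p = 0.387), Smad2 by 0.21 (adjusted p = 0.0753) and Acvr2a by -0.20 (adjusted p = 0.0629), none of which passed in limma without the slide. With the slide as a block Smad2 and Acvr2a passed (limma adjusted p = 0.00669 and 0.0392). The type I receptor gene Acvr1 fell by 0.62. Smad9, below background on all 6 HDAC4&5 arrays, was at least 1.57-fold lower with the scanner's background subtraction. Among the targets that fell the differences included -1.89 for Ccn2, -1.79 for Id1, -1.49 for Id2, -1.14 for Id3, -1.04 for Tsc22d1 and -0.79 for Pmepa1, all past the adjusted p. Junb was the target that rose, by 0.38. With the slide as a block Klf10 passed as well, higher by 0.12 (limma adjusted p = 0.0110). The target genes also respond to other signals, and the muscle precursor, fibre and fibroblast lists differed between the same groups. The summed level of 5 smooth muscle markers was 29.8 to 35.3 in WT and 16.6 to 22.1 in HDAC4&5. That of 8 adipocyte markers was 3.77 to 4.55 and 2.00 to 2.55, with 1 of the 2 tested rising and 1 falling. The part of these shifts in the members' differences was not tested.

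**Figure D3:**
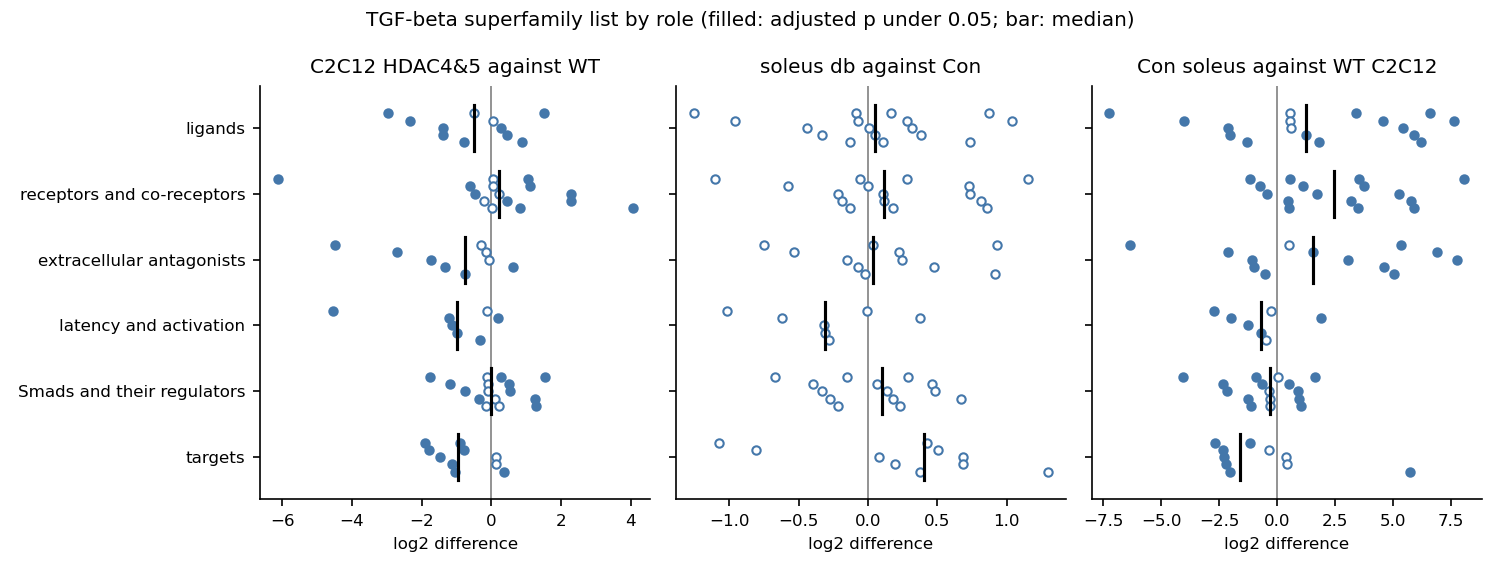
Log2 difference (x axis) of each tested gene of the TGF-beta superfamily list by role (rows) in the 3 comparisons, filled where the adjusted p was under 0.05, with a bar at the median. In C2C12 7 of 10 targets lie below 0 and pass, and in soleus all 75 genes are open.

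The second comparison asked whether the same genes differed in soleus of db mice. No member passed the adjusted p in limma or in the methods' t-test, and 1 of the 9 tested, Mstn, passed at an unadjusted p under 0.05. Over all 18471 probes tested 0.00541%, 1 probe, passed the adjusted p and 6.43% had an unadjusted p under 0.05. Mstn was -2.76, -3.01 and -3.12 in Con and -4.60, -3.63, -4.13 and -4.52 in db. Each db array lay below each Con array, and Mstn was well above background on 3 of 3 Con arrays but on 1 of 4 db arrays, so the db level lay near the background. The log2 difference was -1.26 (95% confidence interval -2.02 to -0.49; unadjusted p = 0.00524; adjusted p = 0.560), and its size rests on db values that were mostly not well above background. The two-sided exact permutation p was 0.0571, the smallest that 4 against 3 arrays can give, and 10.2% of all probes tested had groups without overlap. Within slide 1 the difference was -1.23 and within slide 2 it was -1.21. With the slide as a block it was -1.22 ± 0.28 with an adjusted p of 0.127, where 0.173% of all probes passed. It was -0.64 with normexp background correction and -0.50 in the authors' own matrix.

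The levels of other markers are set beside Mstn, and no single marker gene of these lists passed the adjusted p. The summed level of 8 endothelial markers was 47.1 to 48.9 in Con and 21.1 to 32.6 in db. That of 6 fibroblast markers was 235 to 367 and 104 to 208, and neither sum overlapped. Single fibroblast genes went both ways, with a median log2 difference of 0.08 over 6 tested. Col1a1 differed by -1.43, Col3a1 by -0.88 and Dcn by -0.07, while Dpt (0.37), Pdgfra (0.27) and Lum (0.23) were higher in db. For 7 fast fibre genes, whose fibres express Mstn most, the summed level was 670 to 2116 in Con and 445 to 1771 in db, which overlapped. Over 10 tested genes of the fast fibre list the median log2 difference was -0.60, with Atp2a1 (0.52) and Casq1 (0.09) higher in db and the rest lower. Single genes of that list stood apart, and are named after their values were seen. Myh4, the myosin of the fastest fibres, was 7.07 to 8.54 in Con and 2.79 to 6.15 in db, a log2 difference of -3.11 ± 0.96 (adjusted p = 0.639). Actn3, the actinin of fast fibres, was 3.87 to 4.94 in Con and 1.28 to 3.61 in db, a difference of -1.94 ± 0.61 (adjusted p = 0.646). Neither overlapped and neither passed in limma, and no endothelial or fast fibre gene had a lower adjusted p than Myh4. Their part in the Mstn difference was not tested.

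The remaining members did not separate Con from db. Fst was -1.86, -1.91 and -1.68 in Con and -2.13, -1.16, -1.82 and -1.15 in db, a difference of 0.25 with an interval of -0.54 to 1.03. The groups overlapped, as they did for the other 7 tested members. Tgfb3, at 5.32, 4.86 and 5.27 in Con and 5.40, 5.82, 5.25 and 5.24 in db, had a difference of 0.28 with an interval of -0.40 to 0.96. For Inhbb the interval ran from -0.65 to 1.29 and for Tgfb1 from -1.09 to 0.95. The intervals were wide for Tgfb2 (-1.75 to 1.77), Inhba (-1.53 to 2.29), Acvr2b (-0.45 to 2.17) and Bmp4 (-1.14 to 1.47), and those of Tgfb2, Inhba and Bmp4 hold changes of 2-fold in either direction. Smad7 was not well above background on any of the 7 soleus arrays and was not tested.

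Much of the spread in soleus lay between the slides. Tgfb2 was -0.17, 0.92, -0.77 and -0.55 on slide 1 and 1.02, 1.95 and 1.76 on slide 2. Inhba was -0.59, -1.63, -0.58 and 0.50 on slide 1 and -2.67, -2.72 and -2.21 on slide 2. The slides did not overlap for either gene, with slide 2 higher by 1.72 for Tgfb2 and lower by 1.96 for Inhba. They did not overlap for Tgfb1, Bmp4, Acvr2b or the second Inhbb probe either, and over all 18471 probes 44.1% separated by slide. Slide held Con and db arrays alike, and with it as a block the difference was 0.73 ± 0.40 for Inhba and 0.64 ± 0.31 for Acvr2b, neither past the adjusted p (0.372 and 0.321).

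**Figure D4:**
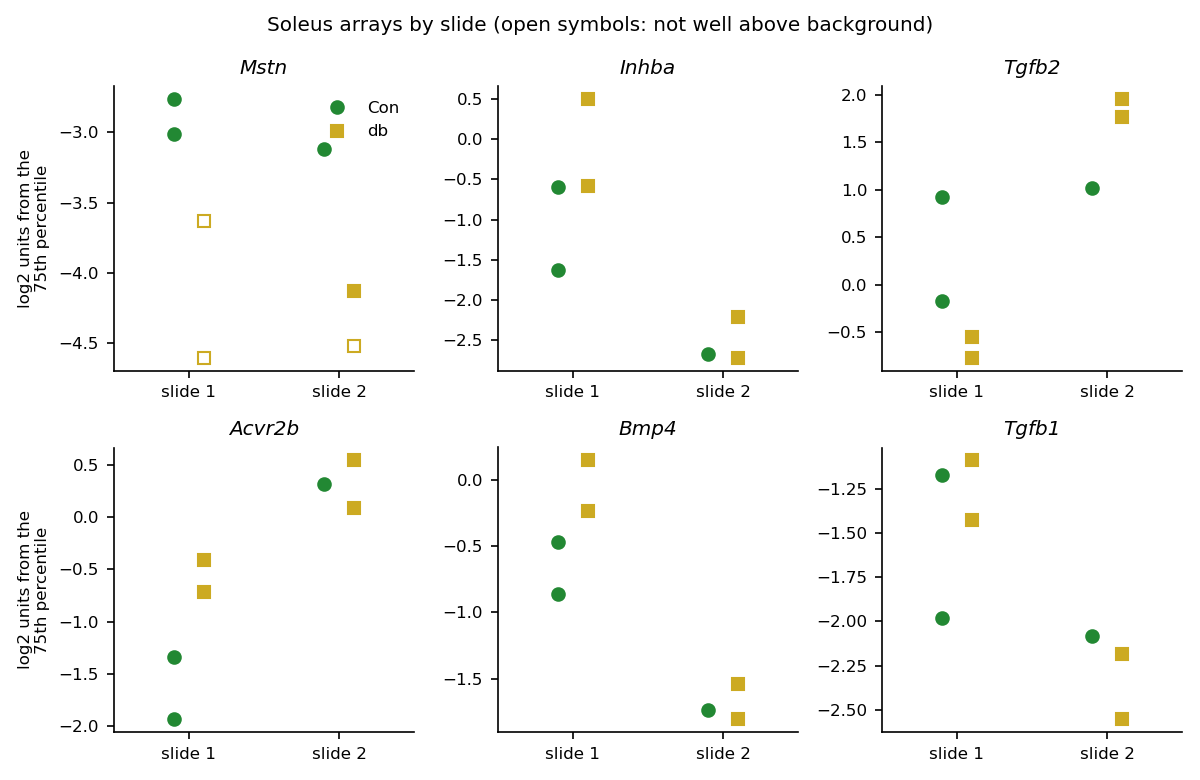
Level of 6 members in soleus (y axis, log2 units from the 75th percentile) by slide, with circles for Con and squares for db, open where the probe was not well above background. For Mstn the db arrays lie below the Con arrays on both slides, while Inhba, Tgfb2, Acvr2b, Bmp4 and Tgfb1 separate by slide.

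In the wider list none of 75 tested genes passed in soleus, with 7 at an unadjusted p under 0.05, 5 higher and 2 lower in db, and none past the adjusted p of the methods' t-test, with 6 unadjusted. Over all probes 6.43% had an unadjusted p under 0.05 in limma and 7.58% in the methods' t-test. The median log2 difference was 0.08 beside 0.02 over all probes. None of the 17 ligands, 16 receptors and co-receptors, 11 antagonists, 7 latency genes, 14 Smads and regulators and 10 targets tested passed. Tgfbr3 was well above background on 4 of 4 db arrays and 0 of 3 Con arrays, at -3.33 ± 0.39 and -4.48 ± 0.40, and did not pass. The fitted values of C2C12 and soleus rest on different samples and the difference between them was not tested.

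The third comparison set Con soleus against WT C2C12 cells, to describe where the members were expressed. The tissue and the cells lay on different slides, so tissue and slide cannot be told apart, and these arrays also served as the controls of the other 2 comparisons. Of the 10 members 9 passed, 5 higher and 4 lower in soleus. Over all 22559 probes tested 74.3% passed, 34.4% higher and 39.9% lower. The median difference of all probes was -0.16, and became -0.44 with quantile normalization, 0.31 with normexp and -0.35 in the authors' matrix. Mstn and Bmp4 entered the test through Con alone and Smad7 through WT alone. With both groups required well above background, 6 of 7 tested members passed, 3 higher and 3 lower, beside 74.3% of all probes.

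Mstn, Fst, Bmp4, Acvr2b and Tgfb3 were higher in soleus. Mstn was 4.57 ± 0.29 higher and Bmp4 5.46 ± 0.28 higher on the log2 scale (adjusted p = 2.05e-07 and 3.84e-08). Since neither was above background on any WT array, these were at least 6.71-fold and at least 25.8-fold with the scanner's background subtraction. With normexp the fitted differences were smaller than these bounds, at 2.22 for Mstn and 2.84 for Bmp4 on the log2 scale, so the size of both rested on how background was treated. Fst was higher by 3.06 ± 0.22 (adjusted p = 5.30e-07), Acvr2b by 3.21 ± 0.42 (adjusted p = 5.54e-05) and Tgfb3 by 1.26 ± 0.17 (adjusted p = 9.92e-05). These were 2.03 for Fst and 2.52 for Acvr2b with normexp, and 0.78 for Tgfb3 in the authors' matrix. Inhba, at -0.59, -1.63 and -2.67 in Con beside 2.02 to 2.57 in WT, was lower in soleus with a difference of -4.00 ± 0.37 (adjusted p = 3.57e-06). Tgfb1 had a difference of -2.04 ± 0.20 (adjusted p = 6.77e-06) and Inhbb of -1.30 ± 0.23 (adjusted p = 0.000439). The second Inhbb probe gave 0.78 ± 0.67 and did not pass, and the mean of both Inhbb probes gave -0.26 with an adjusted p of 0.597. Smad7 was at least 1.36-fold lower, being above background on 6 of 6 WT arrays and 0 of 3 Con arrays, but its difference of -2.34 became 0.22 with normexp (adjusted p = 0.498). Tgfb2 overlapped, at 0.56 ± 0.26 (adjusted p = 0.0778), and passed at 0.94 (adjusted p = 0.00108) without Con replicate 1. Without overlap were 9 of the 10, beside 69.0% of all probes. Of these Mstn, Bmp4 and Smad7 entered through 1 group alone.

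In the list 66 of 79 tested genes passed, 36 higher and 30 lower in soleus, with a median log2 difference of 0.48 beside -0.16 over all probes. That was 83.5% of the list beside 74.3% of all probes, 34.4% higher and 39.9% lower, and the counts by role stand against the same shares. In the authors' matrix 22 were higher and 29 lower of 66 tested, where 76.1% of all probes passed, 30.3% higher and 45.8% lower. Of the receptors and co-receptors 13 were higher and 3 lower of 16 tested. With the slide as a random block, where 65.5% of all probes passed, 11 were higher and 1 lower, and Bmpr2, Tgfbr1, Acvr2a and Acvr1 no longer passed. The ligands had 9 higher and 5 lower of 17, the antagonists 7 and 5 of 13, the latency genes 1 and 4 of 7, the Smads and regulators 5 and 7 of 16 and the targets 1 and 6 of 10. The BMP antagonists Chrdl2 and Chrdl1 and the ligand Bmp6 were below background on all WT arrays. With the scanner's background subtraction they were at least 52.8-fold, 35.4-fold and 48.6-fold higher in soleus. Amhr2 was higher by 8.08 ± 0.20 and Gdf1 by 6.61 ± 0.20. Gdf15 was 4.84 to 5.15 in WT and -2.44 to -2.20 in Con. The BMP antagonist Grem1, -0.37 to 1.17 in WT, was below background on all 3 Con arrays. With the scanner's background subtraction Grem1 was at least 18.7-fold lower. The corepressor Tgif1, well above background on 1 of 3 Con arrays, had a fitted difference of -4.06 ± 0.13, so its Con level lay near the background. Ltbp2 differed by -2.70, and Inhba was the other of the 5 largest falls.

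Across the 4 groups the members fell into a few orders of level. For Fst, Bmp4, Acvr2b and Tgfb3 both soleus groups stood above both cell groups, and db and Con overlapped. Below them WT lay above HDAC4&5 for Fst and Tgfb3 and below it for Bmp4 and Acvr2b, in each case without overlap. For Fst this order rested on the scanner's background subtraction. With normexp Fst was 0.20 higher in HDAC4&5 (limma adjusted p = 0.634). For Mstn Con lay above the other 3 groups, which were well above background on at most 1 array each and were not put in order. For Inhba and Tgfb1 the order began with HDAC4&5 and WT, which did not overlap, and Con and db overlapped below them. Tgfb2 was lowest in HDAC4&5, and its values in WT, Con and db overlapped. By its brighter probe Inhbb was highest in WT, and db, Con and HDAC4&5 overlapped below it. Its second probe, near background and with overlapping groups, gave no such order. Smad7 was highest in HDAC4&5 and WT with the scanner's background subtraction, and was below background in soleus. Its difference of Con against WT became 0.22 with normexp (limma adjusted p = 0.498).

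The members were also set against 12241 other probes (12242 for Tgfb3) for likeness over the 19 arrays, as the root mean square (RMS) of the difference between profiles centred on their means. The closest to Tgfb1 was Calr, at an RMS of 0.18 log2 units, and to Tgfb3, over 18 arrays, Arl2 at 0.20. Mettl27 was closest to Inhbb (0.27), Tom1l1 to Tgfb2 (0.32), Rnf115 to Acvr2b (0.32), Fmo5 to Fst (0.39), Trp53-ps to Inhba (0.41), Zdhhc14 to Bmp4 (0.45), Tmem67 to Smad7 (0.47) and Nrgn to Mstn (0.69). All arrays share the contrast between tissue and cells, which weighs heavily in this measure, so likeness is a description only.

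The probes lay, in mm9 coordinates from the array annotation, on chromosome 1 for Mstn (chr1:53124482-53124541), Inhbb (chr1:121312083-121312142 and, for the second probe, chr1:121314417-121314476) and Tgfb2 (chr1:188447534-188447593). Inhba lay at chr13:16118634-16118693, Fst at chr13:115244692-115245364, Tgfb1 at chr7:26489877-26489936, Tgfb3 at chr12:87397804-87397863, Bmp4 at chr14:47003802-47003861, Acvr2b at chr9:119337671-119339026 and Smad7 at chr18:75555371-75555430. The Fst and Acvr2b probes are 60 bases long but span 673 and 1356 bases of genome, so they cross an exon junction. Tgfb1 and Bmp4 were each read by 10 spots per array and the other probes by 1, so the averages of the former carry less spot noise. Each gene other than Inhbb was read by a single probe, which reports the transcripts that hold its target and not the protein.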

How the data were processed

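Total RNA (100 ng) was labelled and hybridised by the authors to 1-colour Agilent arrays, which were read with Feature Extraction 9.5.1.1, per the labels. The deposited scanner files hold a processed signal intensity per spot, with background subtracted. The deposited matrix, used as an alternative, holds the intensity as a ratio to a constant per array. Of its 19 columns 15 equalled a scanner file within 0.01 log2 units up to a constant; 4 soleus columns matched none, and the db columns were numbered otherwise than the files, so it was used by group.

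Control and outlier-flagged spots were dropped, log2 intensity minus the array's 75th percentile was taken and spots of a probe were averaged. Gene names were updated through RefSeq. Probes were tested with limma 3.58.1 in R 4.3.3 with Benjamini-Hochberg adjustment over all probes tested, and genes were counted by their brightest probe. Bounds put a group below background at the lowest signal flagged above it on each array. In the list, the 5 largest rises and falls past the adjusted p without overlap were named. Alternatives were normalization, background, filter, gene level, slide or replicate block, left-out replicates and the methods' t-test. The fit was checked on simulated data. Members and lists were chosen with earlier results of these data known.

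Replicate numbers were examined for pairing. Deviations of same-numbered arrays correlated at 0.23 to 0.58 in cells and 0.37 to 0.66 in soleus. Other-numbered arrays of the same slide did so too (0.20 to 0.54 and 0.27 to 0.73), so the numbers showed no pairing beyond the shared slide.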

Additional observations from a re-analysis of the deposited data

Results flagged for a closer look

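Acvr2b in WT replicate 6 was -4.87, apart from the nearest other WT array at -4.14 by more than Dixon's 95% limit for 6 arrays. It was well above background there, and all 6 HDAC4&5 arrays lay above all 6 WT arrays. Among 33 groups of arrays examined in this way 1 had such an array, and about 1 in 20 groups does so by chance.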

How the results depend on the processing

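For the members' log2 differences, 388 of 413 recomputed values kept their direction and side of the threshold, 3 lost the call, 3 gained it and 19 changed sign, and 17 of these 19 were of uncalled soleus values. Settings that changed only the test, threshold, filter or choice of brightest probe left a gene's fitted difference as it was. Their direction could not change, so the 413 values are not separate checks. In C2C12 6 to 9 members and 38 to 58 list genes passed under the alternatives, and in Con against WT 6 to 10 and 45 to 87, while over all probes 37.4% to 76.7% and 61.3% to 81.2% passed. In soleus 0 members and 0 list genes passed except at an unadjusted p, where 1 member and 7 list genes passed in limma and 1 and 6 in the methods' t-test. Leaving out any 1 soleus array left 0 and 0. With the replicate block 8 members and 56 list genes passed in C2C12, 0 and 0 in soleus and 9 and 52 in Con against WT, beside 76.0% of all probes in C2C12 and 61.3% in Con against WT, and it changed no member's call. Tgfb1 in C2C12 lost its call in the authors' matrix (0.26) and at a fold of at least 1.5 (0.44). With normexp Fst in C2C12 was 0.20 and Smad7 in Con against WT was 0.22. Inhbb in Con against WT lost its call as the mean of its probes (-0.26), and Tgfb2 gained one without Con replicate 1 (0.94). In soleus Tgfb1 turned to 0.087 with quantile normalization, 0.13 in the authors' matrix, 0.074 with the slide block and 0.053 with the replicate block, and Tgfb2 to -0.29 and -0.38 with these 2 blocks. With single arrays left out, soleus Tgfb1 ranged from -0.31 to 0.22, Tgfb2 from -0.44 to 0.47, Inhba from -0.20 to 0.90, Bmp4 from -0.19 to 0.48, Fst from 0.11 to 0.44, Inhbb from 0.077 to 0.62, Tgfb3 from 0.13 to 0.36 and Mstn from -1.45 to -1.13. Acvr2b ranged from 0.39 without Con replicate 2 to 1.51 without Con replicate 3, beside 0.86. The causes were not tested.

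Over all probes 8017 of 14650 C2C12 calls had a fold of at least 1.5, and the authors' matrix gave 4071 higher and 6472 lower beside 7823 and 6827. In soleus the count was 0 to 32 under adjusted settings, 1188 at an unadjusted p and 1401 in the methods' t-test. For Con against WT it was 32579 beside 16766 with no filter on dim probes, and normexp gave 9813 higher and 6821 lower beside 7758 and 9008. The median of all C2C12 probes was 0.16 with normexp background correction and -0.11 in the authors' matrix, in which 20194 probes were tested, and that of soleus was 0.12 with quantile normalization and 0.26 in the authors' matrix. The fold bounds were computed with the scanner's background subtraction only. With normexp the Con against WT differences of Mstn and Bmp4 were smaller than their bounds. The bounds therefore hold only under that subtraction. Signal over background limits Mstn, Fst, Bmp4 and Smad7, whose levels in groups below background are bounds, and the level of Mstn in db, where 1 of 4 arrays was well above background.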
